A study of Homo sapiens with 18 samples.

Results

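The data describe what decitabine given alone did to gene expression in U937 cells, as the difference between 3 arrays of decitabine-treated cells and 3 arrays of control cells out of 18 arrays in the series. U937 is a long-established human line of monocyte-like cells that came from a histiocytic lymphoma. Per the labels, the treated cells received 5-aza-2'-deoxycytidine (decitabine) in 3 pulses of 24 h each. The control cells are labelled only as control, without a vehicle being named, and both groups were grown in RPMI 1640 medium with fetal calf serum. The array titles carry the number 50 for decitabine with no unit, so no dose is stated here. A further 12 arrays, 3 in each of 4 groups, enter the model: decitabine plus panobinostat, panobinostat alone, decitabine plus valproic acid, and valproic acid alone. Panobinostat and valproic acid inhibit histone deacetylases and were present during the last 24 h. Of the 48226 probe sets on the arrays (Affymetrix Human Gene 2.0 ST), 16098 carry 1 gene symbol, and these stood for the 14884 genes tested.

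Decitabine is an analogue of cytidine that cells phosphorylate and build into new DNA in place of cytosine. There it traps DNA methyltransferases, and methylation is lost over rounds of replication because the maintenance enzyme DNMT1 is no longer free to copy it. Genes held silent by methylation of CpG dinucleotides at their start, such as germline genes and some genes of other cell lineages, are known to become expressed after such treatment, and transcripts of endogenous retroviruses can set off interferon signalling.

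Across genes, the correlation between arrays was 0.982 to 0.985 for decitabine with control and 0.990 to 0.992 within groups. The U937 label was checked on 9 measured markers of the line, and 4 of them, LYZ, PRTN3, CD68 and VIM, were called higher with decitabine. The lowest in control cells was PRTN3, at a mean of 4.58, against 7.62 in decitabine cells, and the other 8 had means of 6.51 to 12.28 in control cells. MPO, the myeloperoxidase of myeloid granules, had log2 signals of 12.41, 12.17 and 12.36 in decitabine arrays, against 12.31, 12.23 and 12.30 in control arrays. The surface receptor CD4 had 9.89, 9.73 and 9.54, against 9.93, 9.71 and 9.57, and the kinase LYN had 10.98, 11.04 and 10.94, against 10.81, 10.72 and 10.87. No label names a culture, date or batch, so the p-values measure the spread between arrays, which may be technical. As these are bulk RNA measurements, a change in the share of cells that express a gene cannot be told apart from a change in RNA per cell. Each level below is a log2 array signal, each change is the decitabine mean minus the control mean on the log2 scale with its standard error (SE) from limma, and n = 3 in every group.

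The sequences upstream of 5 genes that rose show the range of CpG content met among them. They are the 250 bases before the first start listed by RefSeq for each gene, on GRCh38.p14, read 5' to 3' on the gene's own strand, with each CG in capitals. MAEL (chr1:166975332-166975581, plus strand) and DAZL (chr3:16605424-16605673, minus strand) are germline genes with 51 and 28 CG in these bases. CD34 (chr1:207911126-207911375, minus strand), a stem cell gene, has 14. CCL1 (chr17:34363234-34363483, minus strand), a chemokine gene, and TM4SF1 (chr3:149377650-149377899, minus strand), a membrane protein gene, have 4 each.
MAEL: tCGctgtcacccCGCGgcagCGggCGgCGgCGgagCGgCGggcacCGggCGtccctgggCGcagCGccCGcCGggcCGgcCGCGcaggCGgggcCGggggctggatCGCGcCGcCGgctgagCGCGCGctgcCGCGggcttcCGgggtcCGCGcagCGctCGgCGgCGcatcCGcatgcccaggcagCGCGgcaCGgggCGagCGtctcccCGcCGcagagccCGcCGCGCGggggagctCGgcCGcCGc
DAZL: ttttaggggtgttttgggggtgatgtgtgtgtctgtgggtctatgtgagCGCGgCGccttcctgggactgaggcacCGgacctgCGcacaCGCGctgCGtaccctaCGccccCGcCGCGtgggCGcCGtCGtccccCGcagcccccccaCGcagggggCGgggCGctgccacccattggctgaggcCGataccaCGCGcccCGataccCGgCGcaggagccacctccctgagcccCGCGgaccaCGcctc
CD34: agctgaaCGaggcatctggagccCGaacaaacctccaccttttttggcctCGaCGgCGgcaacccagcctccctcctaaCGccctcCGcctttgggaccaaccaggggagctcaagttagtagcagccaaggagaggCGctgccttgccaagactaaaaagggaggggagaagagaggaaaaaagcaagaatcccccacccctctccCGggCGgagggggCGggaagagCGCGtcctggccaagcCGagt
CCL1: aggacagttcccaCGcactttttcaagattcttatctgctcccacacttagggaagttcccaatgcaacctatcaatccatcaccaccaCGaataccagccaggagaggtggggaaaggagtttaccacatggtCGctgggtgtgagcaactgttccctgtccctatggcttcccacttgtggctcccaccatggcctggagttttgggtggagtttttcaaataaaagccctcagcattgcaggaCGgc
TM4SF1: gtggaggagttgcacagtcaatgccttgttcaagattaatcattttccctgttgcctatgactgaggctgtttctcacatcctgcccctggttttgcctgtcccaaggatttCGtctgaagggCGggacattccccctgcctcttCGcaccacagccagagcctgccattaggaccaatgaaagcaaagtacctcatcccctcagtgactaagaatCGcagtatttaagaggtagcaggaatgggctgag

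Rises occurred at both ends of this gradient. MAEL had signals of 7.74, 7.11 and 7.53 in decitabine arrays, against 3.94, 4.02 and 3.81 in control arrays, and DAZL had 6.80, 6.06 and 6.03, against 3.75 to 4.39. CCL1, with 4 CG, had 8.12, 8.09 and 8.29, against 4.20, 4.97 and 4.11, and TM4SF1 had 6.28, 5.88 and 5.69, against 3.54, 3.51 and 3.59. These genes were chosen as genes that rose, and in each of them every decitabine array lay above every control array. The groups did not overlap, in either direction, in 22.7% of all genes tested.

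CpG content was then counted for 9701 tested protein-coding genes with a promoter in the RefSeq table, over 300 bases (250 before the start and 50 after it). All 9701 genes had a median of 23 CpG. The 115 genes called higher by at least 2-fold had a median of 12, with quartiles of 6 and 25.5, and the 161 genes called lower had a median of 27. At least 20 CpG were present in 35.7% of the genes called higher by at least 2-fold and in 72% of the genes called lower, against 60.7% of all genes. CpG content also went with the level of a gene. Genes low in control cells (below a signal of 5.42, explained below) had a median of 16 CpG, and the 76 of them that rose at least 2-fold had 13. Among genes not low in control cells the median was 27, and the 39 of them that rose at least 2-fold had 12. With the start richest in CpG in place of the first listed one, the medians were 16 for the genes called higher by at least 2-fold, 28 for those called lower and 26 for all genes. These counts describe sequence and were not tested, and methylation itself was not measured in these data.

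**Figure D1:**
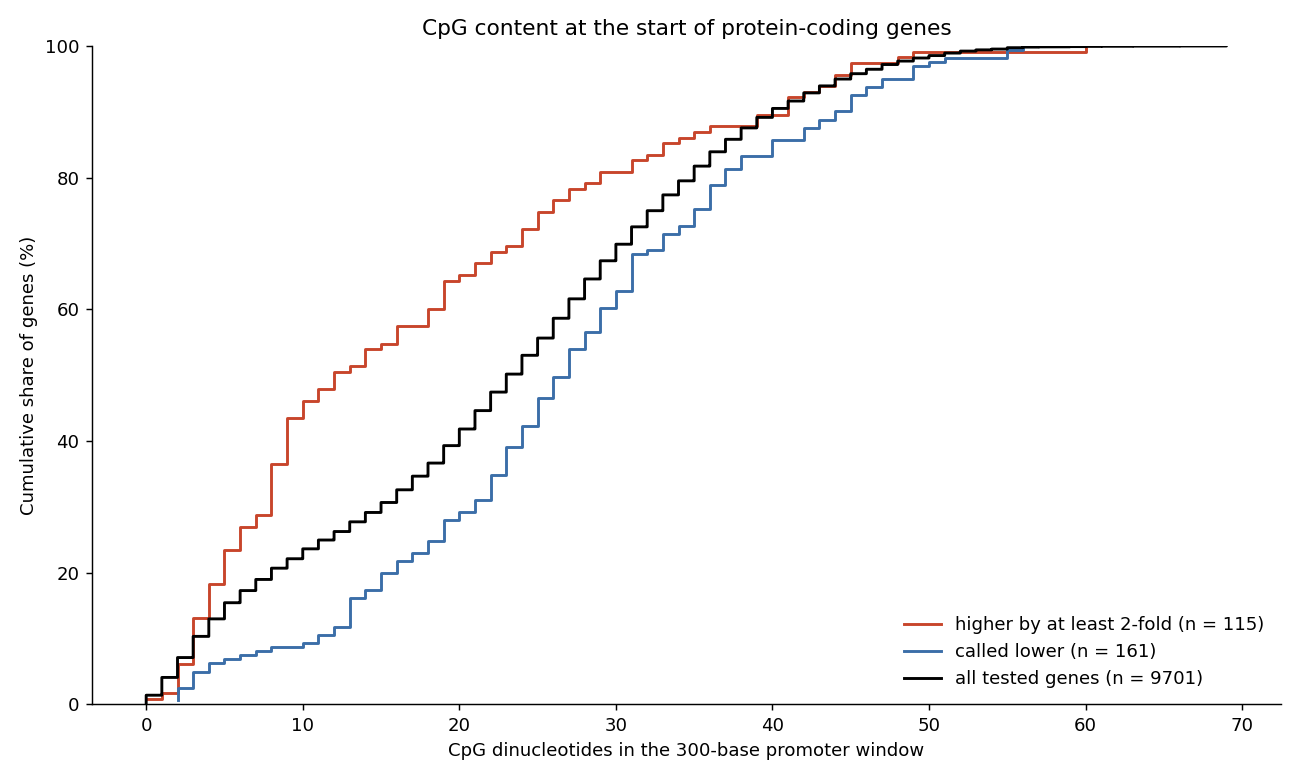
Cumulative share of protein-coding genes (percent, vertical axis) by the number of CpG dinucleotides in the 300 bases around the gene's first listed start (horizontal axis), for 115 genes called higher by at least 2-fold, 161 genes called lower and all 9701 genes. The curve of the genes that rose at least 2-fold lies to the left, with a median of 12 CpG, against 23 for all genes, and the curve of the genes called lower lies to the right, with a median of 27.

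Of the 14884 genes, 590 (3.96%) were called, meaning a Benjamini-Hochberg adjusted p under 0.05 in limma's moderated test. Decitabine raised 383 of them (2.57% of the genes tested) and lowered 207 (1.39%). Most large changes were rises. By at least 2-fold, 178 genes (1.2%) were higher and 34 (0.228%) lower, by at least 4-fold 50 were higher and 0 lower, and 20 were higher by at least 8-fold. In 587 of the 590 genes the decitabine arrays all lay on one side of the control arrays, which was true of 22.7% of all genes tested. The exceptions were FURIN, PLAC8L1 and TMEM52B. An unadjusted p under 0.05 was reached by 2458 genes, and the median change over all genes was -0.01. Without decitabine array 1, control array 1 or control array 2 the count fell to 366, 366 and 361, and 253 genes kept a call when any 1 of the 6 arrays was removed. When each array was centred on its own median, all changes shifted by -0.06 and the split became 313 higher and 333 lower (48.5% higher, against 64.9% without centring).

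The genes that rose most started near the median level of all genes, which was 4.53 in control cells. The 383 genes called higher had a median signal of 6.87 in decitabine cells, against 5.35 in control cells, and those higher by at least 2-fold had 6.39, against 4.42. The genes called lower had a median of 6.91 in decitabine cells, against 7.67 in control cells, and those lower by at least 2-fold had 5.76, against 6.95. Keratin-associated protein genes, which serve hair fibres, were used as a guide to the signal of silent genes, a choice made after seeing the data. The 85 measured ones had a median of 3.60 in control cells and a 95th percentile of 5.42, and 1 of them (KRTAP10-10) was called. In control cells 121 of the 178 genes that rose at least 2-fold and 193 of all 383 called higher lay below 5.42, as did 8588 of the 14884 genes tested. Of all 383 genes called higher, 72 had a control mean below this level and every decitabine array above it. Of the 207 genes called lower, 21 went below it.

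**Figure D2:**
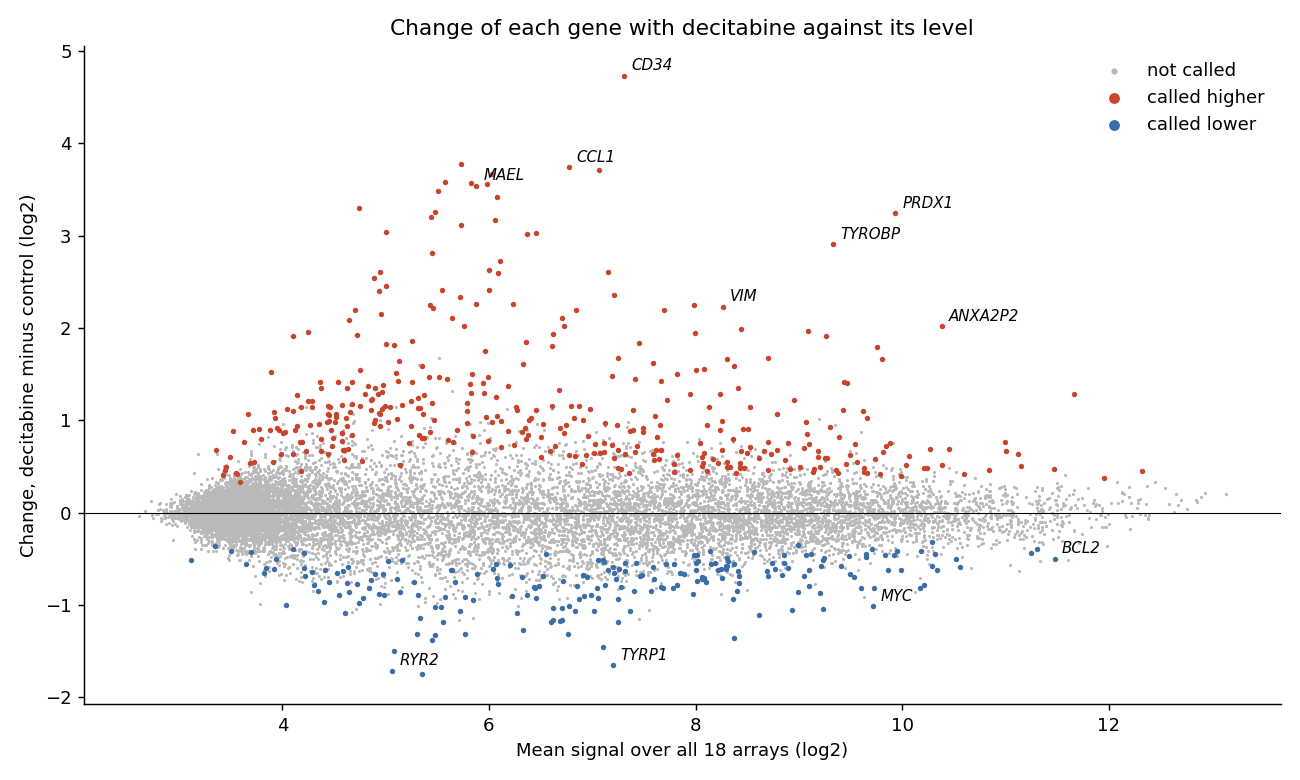
Change of each of 14884 genes (decitabine minus control, log2, vertical axis) against its mean signal over all 18 arrays (log2, horizontal axis), with the 383 genes called higher and the 207 called lower in colour. Rises reach 4.73 (CD34) while no fall passes -1.75, and the called genes lie mostly above a mean signal of about 4.

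Calls were also uneven over the range of signal. With genes ranked by mean level and split into 5 equal groups, the lowest group held 5 genes called higher and 3 lower, the next 19 and 6, and the middle one 130 and 49. The upper groups held 127 and 102 genes called higher and 79 and 70 called lower. Signals near background are compressed on these arrays, so the changes of genes that start there can be understated.

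Germline genes were among the largest rises. MAEL, whose protein works with piRNAs to silence transposons in germ cells, rose by 3.54 (SE 0.25). HORMAD1, a protein of the meiotic chromosome axis, had signals of 7.74, 6.96 and 7.58 in decitabine arrays, against 3.95, 3.74 and 4.14 in control arrays, and rose by 3.48 (SE 0.25). GCNA, a germ cell nuclear protein that handles DNA-protein crosslinks, had 8.38, 7.60 and 7.99, against 4.21, 4.94 and 4.54. TKTL1, a transketolase-like gene of testis, had 7.62, 6.52 and 7.14, against 3.13, 3.45 and 3.37, so that its decitabine arrays spanned over 1 log2 unit. DCAF4L1, a gene for a WD repeat protein like DCAF4, had 7.94, 7.42 and 7.86, against 3.78, 4.20 and 4.22. Adjusted p-values of these 5 genes in limma ran from 1.96e-09 to 3.25e-06.

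Beyond the leaders, most germline genes on the lists were not called. Of 17 measured piRNA pathway genes, 4 rose (23.5%, beside 3.96% of all genes called) and 0 fell, with a median change of 0.11. They were MAEL, PNLDC1, which trims piRNA ends, at 2.45 (SE 0.20), PIWIL2, an Argonaute protein that binds piRNAs, at 0.80 (SE 0.20), and TDRD9, a helicase, at 0.60 (SE 0.15). PNLDC1 had signals of 6.91, 6.26 and 6.23 in decitabine arrays, against 3.99, 3.93 and 4.12. PIWIL1, DDX4 and TDRD1 changed by -0.17, -0.06 and 0.09 and were not called. Of 27 meiotic chromosome genes, 4 (14.8%) rose and 0 fell (median 0.10): HORMAD1, the cohesin subunit STAG3 at 1.42 (SE 0.26), TEX11 at 0.90 (SE 0.20) and SYCP3, of the synaptonemal complex, at 0.64 (SE 0.16). The recombination nuclease SPO11 (0.06) and the methyltransferase PRDM9 (-0.11) were not called. Of 32 germ cell and early embryo genes, 4 (12.5%) rose and 0 fell (median 0.05): TKTL1, GCNA, the RNA-binding protein DAZL at 2.25 (SE 0.22) and DPPA3 at 0.94 (SE 0.24). NANOG, POU5F1 and the protamine genes PRM1 and PRM2 had changes of -0.12, 0.30, -0.05 and 0.15. TOP6BL, a partner of SPO11, and the egg coat gene ZP3 were on none of these lists. Both were called lower, at -1.45 and -1.27 (described below with the falls).

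Most of the smaller germline rises lost their call when single arrays were left out. STAG3, which kept it then, had signals of 5.87, 4.36 and 5.26 in decitabine arrays, against 3.86, 3.66 and 3.71, and lost its call with only the 6 arrays in the model (adjusted p up to 0.0642). PIWIL2 lost it without decitabine array 1 or 3 or control array 1 or 3 (adjusted p up to 0.132). TDRD9 lost it without decitabine array 1 or control array 1, 2 or 3 and with only the 6 arrays in the model (adjusted p up to 0.148). TEX11 lost it without decitabine array 1 or 3 or control array 1 or 2 (adjusted p up to 0.0946). SYCP3 lost it without decitabine array 1, 2 or 3 or control array 1, 2 or 3, with arrays centred and with a trended, robust variance (adjusted p up to 0.139). DPPA3 lost it without decitabine array 1 or control array 1, 2 or 3, with only the 6 arrays in the model and with arrays centred (adjusted p up to 0.183).

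Cancer-testis antigens are germline proteins that tumours can express and T cells can recognise. Of 14 measured, 3 rose (21.4%, beside 3.96% of all genes called) and 0 fell, with a median change of 0.08. PRAME averaged 8.17 (SD 0.15) in decitabine arrays, against 5.56 (SD 0.61) in control arrays, where array 3 lay below the other two, and rose by 2.61 (SE 0.23). CTAG1A, which codes for NY-ESO-1 as does its near-identical copy CTAG1B, had 5.54, 4.79 and 4.84, against 3.53, 3.92 and 3.67. GAGE12J, one of a family of near-identical copies on the X chromosome that the probes cannot tell apart, rose by 0.68 (SE 0.15) and lost its call without decitabine array 2 or control array 2 (adjusted p up to 0.07). LIN28B, PASD1 and CTAG2 had changes of 0.10, 0.04 and 0.30. Of 19 imprinted genes, 1 (5.26%) rose: PEG10, a gag-like gene derived from a retrotransposon, had 5.78, 6.01 and 5.42, against 4.09, 4.10 and 4.25.

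**Figure D3:**
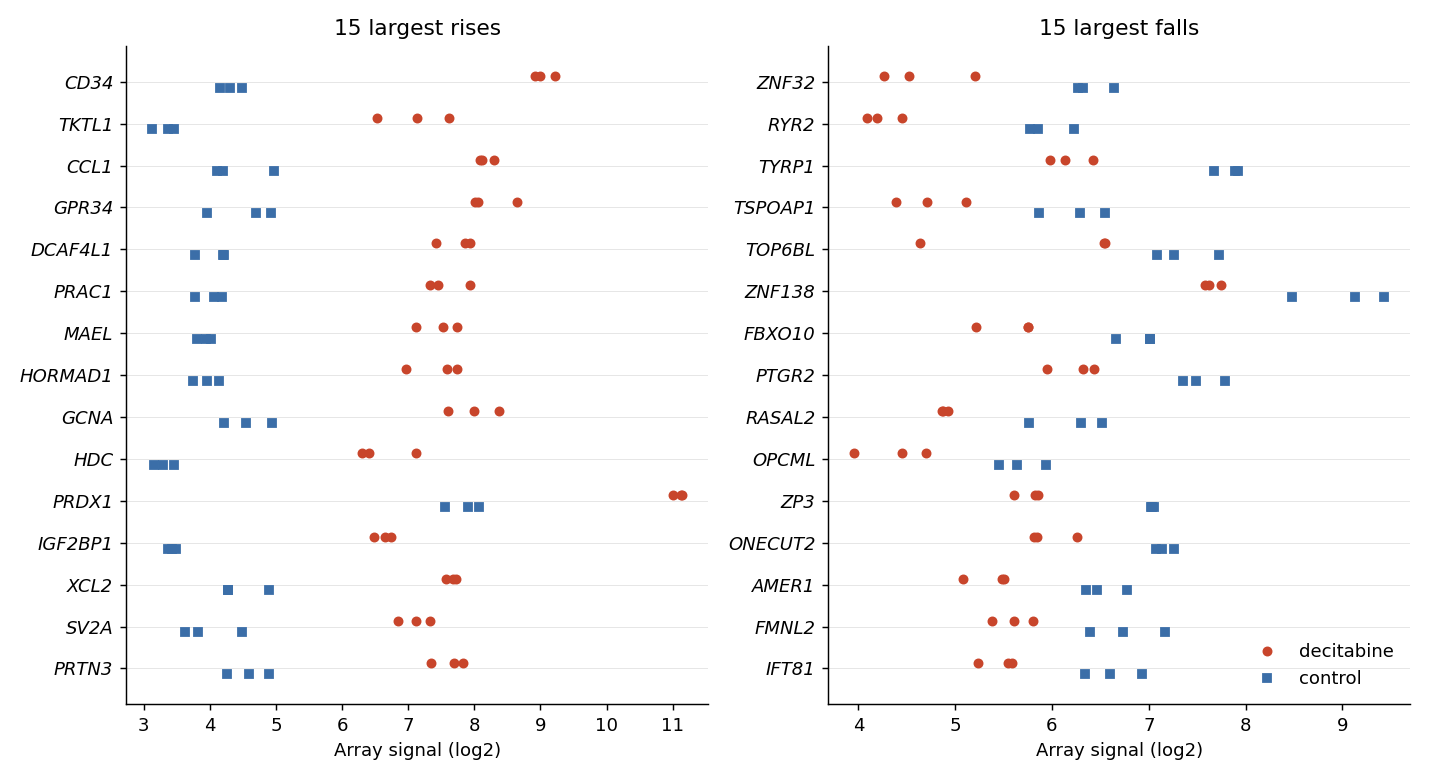
Log2 signal (horizontal axis) of the 15 largest rises (left) and the 15 largest falls (right) among called protein-coding genes whose groups do not overlap, with a circle for each of 3 decitabine arrays and a square for each of 3 control arrays. Most of the rises start from signals near 4 in control cells, and PRDX1 starts near 8. The falls span smaller gaps, and TOP6BL has 1 decitabine array far below the other two.

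Stem and progenitor genes held the largest rise of all. CD34, a surface sialomucin of blood stem and progenitor cells, had signals of 8.92 to 9.22 in decitabine arrays, against 4.49, 4.16 and 4.31 in control arrays. This is a change of 4.73 (SE 0.28), or 26.5-fold, with an adjusted p of 2.39e-08 in limma. GATA2, a zinc finger transcription factor of blood stem cells, had 6.33, 5.95 and 6.37, against 3.17, 3.61 and 4.06, and rose by 2.61 (SE 0.24). PROM1, which codes for the CD133 antigen, rose by 1.16 (SE 0.17), and NPR3, a natriuretic peptide receptor, by 0.81 (SE 0.22). NPR3 lost its call without decitabine array 1 or 2 or control array 1, 2 or 3, with every probe set tested and with arrays centred (adjusted p up to 0.171). Of 18 measured genes on the list, which names 25, these 4 rose (22.2%, beside 3.96% of all genes called) and 0 fell. The median change was 0.48, the highest of the lists written. MEIS1 and LMO2, transcription factors of progenitors already at 9.33 and 6.88 in control cells, changed by -0.44 and -0.04, and KIT (0.49), MECOM (0.37) and TAL1 (0.47) were not called.

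Monocyte and macrophage genes rose in part. TYROBP, an adaptor that carries the signal of many activating myeloid receptors, had signals of 10.83, 10.55 and 10.86 in decitabine arrays, against 7.97, 7.67 and 7.86 in control arrays, and rose by 2.91 (SE 0.17). HCST, its neighbour on chromosome 19 and a related adaptor, had 9.67, 9.90 and 10.21, against 8.54, 8.42 and 8.56. CSF1R, the receptor for macrophage colony-stimulating factor, had 7.17, 6.23 and 6.86, against 4.66, 4.20 and 4.15, and its decitabine arrays spanned almost 1 log2 unit. LYZ, lysozyme, had 9.05, 9.04 and 8.91, against 7.45, 7.05 and 7.48, and CD68, a macrophage endosomal glycoprotein, had 9.33, 9.12 and 8.81, against 7.56, 7.40 and 7.63. CD86, a ligand that costimulates T cells, had 7.00, 7.14 and 7.43, against 5.01, 5.50 and 4.74. S100A9, a calcium-binding protein of neutrophils and monocytes, had 5.46, 5.26 and 5.48, against 4.51, 4.04 and 4.43, rose by 1.07 (SE 0.23), and lost its call without decitabine array 1 or 3 or control array 2 (adjusted p up to 0.0725). Of 18 measured genes on the list 6 rose (33.3%, beside 3.96% of all genes called) and 0 fell. The median change of the list was 0.19, and HCST was not on it. CD14, the lipopolysaccharide co-receptor of monocytes, stayed at background, with 3.19, 3.14 and 3.27 in decitabine arrays, against 3.39, 3.57 and 3.40. CD163, MSR1, FCN1 and S100A8, the partner of S100A9, which are also known from mature monocytes or macrophages, had changes of 0.06, 0.08, -0.29 and -0.13.

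Among granule proteins, 2 neighbouring serine protease genes rose. PRTN3, proteinase 3, had signals of 7.69, 7.34 and 7.83 in decitabine arrays, against 4.89, 4.26 and 4.59 in control arrays, and rose by 3.04 (SE 0.28). AZU1, azurocidin, rose by 0.98 (SE 0.19), from arrays at 6.90, 7.16 and 7.50, against 6.26, 6.15 and 6.20. MPO and CTSG, at 12.28 and 8.95 in control cells, had changes of 0.03 and 0.55 and were not called. Of 16 neutrophil granule genes, 2 rose (12.5%, beside 3.96% of all genes called) and 0 fell, with a median of 0.01. Of the genes of late granules, LTF had a mean of 3.22 in decitabine cells, against 3.25 in control cells, and MMP8 had 3.40, against 3.41. On the same list CAMP had 4.34, against 3.84, and CEACAM6 had 5.84, against 4.70, and neither was called. HDC, the histidine decarboxylase of basophils and mast cells, had 7.12, 6.30 and 6.40, against 3.46, 3.16 and 3.29, and rose by 3.30 (SE 0.38). GPR34, a receptor for lysophosphatidylserine found on myeloid cells, had 8.65, 8.01 and 8.06, against 4.70, 4.92 and 3.96.

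Of 19 measured lysosomal genes, 3 rose (15.8%, beside 3.96% of all genes called) and 0 fell (median 0.13), and the other 16 were not called. Cathepsin D (CTSD) had signals of 11.17, 11.04 and 11.25 in decitabine arrays, against 10.50, 10.43 and 10.61. PSAP, the saposin precursor, rose by 0.69 (SE 0.15), and cathepsin Z (CTSZ) by 0.60 (SE 0.14). PSAP lost its call without decitabine array 3 or control array 2 (adjusted p up to 0.0658), and CTSZ lost it without decitabine array 1 or control array 1, 2 or 3 (adjusted p up to 0.104). VIM, the intermediate filament vimentin, had 8.77, 8.63 and 8.82, against 6.71, 6.65 and 6.17, and rose by 2.23 (SE 0.16).

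Interferon-induced genes split into a group that rose and a larger one that was not called. Of 29 measured effectors, 8 rose (27.6%, beside 3.96% of all genes called) and 0 fell, with a median of 0.20. IFIT5, an RNA-binding protein of the IFIT family, had signals of 8.23, 8.14 and 8.09 in decitabine arrays, against 5.08, 6.66 and 5.63 in control arrays, which differed widely among themselves. The antiviral membrane proteins IFITM3 and IFITM1, neighbours on chromosome 11, rose by 1.37 (SE 0.19) and 1.11 (SE 0.19), while IFITM2 changed by 0.11 and was not called. IFI35 rose by 1.17 (SE 0.24) and lost its call without decitabine array 1 or control array 3 (adjusted p up to 0.0533). The other 4 were IFI44L (1.02), SP110 (0.97) and the neighbours SAMD9L (0.95) and SAMD9 (0.67). IFI44L lost its call without decitabine array 1 or 3 or control array 1, 2 or 3 (adjusted p up to 0.139). ISG15, IFIT1, RSAD2, MX2 and BST2, among the best known of these genes, had changes of 0.29, -0.04, -0.16, -0.76 and -0.11. Of 21 sensors and transcription factors of the pathway, 2 (9.52%) rose and 0 fell (median 0.17). IRF9, the DNA-binding subunit of the ISGF3 complex, had 5.83, 5.61 and 6.35, against 5.03, 4.82 and 4.36, and RIGI, a sensor of viral RNA, had 8.47, 8.28 and 8.34, against 7.34, 7.97 and 7.76. IRF9 lost its call without decitabine array 1 or 3 or control array 2 or 3 and with the replicate block (adjusted p up to 0.147), and RIGI lost it without decitabine array 1 or 3 or control array 1 and with only the 6 arrays in the model (adjusted p up to 0.108). Of 26 genes on the MHC class I list 11 were measured, 0 of these were called in limma, and B2M changed by -0.21. The measured genes include the ligands MICA, MICB, ULBP1, ULBP2 and ULBP3 and hold no HLA gene, so the presentation pathway was read only in part.

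The sequence that the ISGF3 complex and IRF proteins are known to bind was looked for in the promoters of these genes. The 250 bases before IFIT5 (chr10:89414318-89414567, plus strand, RefSeq on GRCh38.p14) hold 2 matches to GAAANNGAA, shown in capitals as they read on the opposite strand.
IFIT5: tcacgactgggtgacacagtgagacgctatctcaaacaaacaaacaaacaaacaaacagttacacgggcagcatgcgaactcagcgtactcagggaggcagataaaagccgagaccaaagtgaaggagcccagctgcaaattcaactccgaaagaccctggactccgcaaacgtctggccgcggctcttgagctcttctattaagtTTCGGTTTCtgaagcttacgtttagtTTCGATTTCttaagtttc

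On either strand, GAAANNGAA occurred in 18 of 23 interferon effectors with a promoter in the table and in 5 of the 8 that rose (IFI44L, IFIT5, IFITM1, IFITM3 and SAMD9). Over all 10740 promoters of 300 bases the share was 6.55%, and it was 5.26% among genes called higher and 4.73% among genes called lower. CACGTG, the E-box that MYC with MAX can bind, was present in 9.03% of all promoters, 8.42% of those of genes called higher and 15.4% (26 of 169) of those of genes called lower. The other motifs searched on both strands were GAGGAAGT (ETS factors such as SPI1) in 2.53% of all promoters and 3.51% of those called higher, AGATAA (the zinc finger family of GATA2) in 7.18% and 6.32%, and TTCCNGGAA (STAT dimers) in 1.18% and 1.05%. These shares were not tested.

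Other immune genes rose singly. CCL1, a chemokine of activated T cells and macrophages that attracts cells bearing CCR8, rose by 3.74 (SE 0.20), and the chemokine receptor CXCR4 by 1.03 (SE 0.25). Of 33 chemokine and receptor genes, 2 rose (6.06%, beside 3.96% of all genes called) and 0 fell, with a median of 0.06. CXCR4 lost its call without decitabine array 1 or 2 or control array 1, 2 or 3 (adjusted p up to 0.128). XCL2, a lymphocyte chemokine that was not on that list, had signals of 7.68, 7.72 and 7.57 in decitabine arrays, against 4.28, 4.28 and 4.89 in control arrays, and its near-identical neighbour XCL1 changed by 0.60 without a call. Of 17 costimulatory and checkpoint ligands, 3 (17.6%) rose and 0 fell (median 0.28): CD86, HHLA2 at 1.07 (SE 0.22) and NECTIN2 at 1.03 (SE 0.23). HHLA2 lost its call with only the 6 arrays in the model (adjusted p up to 0.0774), and NECTIN2 lost it without decitabine array 1 or 3 or control array 2 or 3 (adjusted p up to 0.0641). CD274, the ligand of PD-1, had a change of 0.97 and was not called.

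Some genes of T and NK cells rose. PRF1, the pore-forming protein of killer cells, had signals of 6.18, 6.45 and 6.08 in decitabine arrays, against 3.81, 3.48 and 3.53 in control arrays, and rose by 2.63 (SE 0.26). The T cell kinase LCK had 4.77, 4.64 and 4.26, against 3.30, 3.38 and 3.18, and the adaptor LAT had 5.55, 5.69 and 5.52, against 4.28, 3.80 and 4.44. NKG7, a granule membrane protein, had 6.68, 7.35 and 7.04, against 6.17, 5.61 and 5.06, and lost its call without decitabine array 2 or control array 3 (adjusted p up to 0.0692). CD2, a surface receptor of these cells, was also called, at 0.94, with a mean of 4.91 in decitabine cells, against 3.96 in control cells, and lost its call without decitabine array 1 or control array 2 or 3 and with only the 6 arrays in the model (adjusted p up to 0.117). Of 24 genes, 5 rose (20.8%, beside 3.96% of all genes called) and 0 fell, with a median of 0.17. The mean of the 24 genes ran from 4.70 to 4.86 over the decitabine arrays, against 4.38 to 4.39 over the control arrays. CD8A, CD5, GZMK, GNLY and TBX21 had means of 4.46, 4.23, 3.34, 3.96 and 3.42 in decitabine cells, against 4.59, 4.15, 3.46, 3.98 and 3.48 in control cells, and none was called. CD4, IL7R and GATA3 were above them at 9.72, 7.66 and 5.37 in decitabine cells, against 9.74, 7.31 and 4.74 in control cells, and were not called either.

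The share called differed between lists of other lineages, beside 3.96% of all genes. It was 12.5% of B cell genes, 3.45% of epithelial genes and 0 of neuronal and of erythroid and megakaryocyte genes. For the T and NK cell, pigment cell and muscle lists, described in other paragraphs, it was 20.8%, 9.09% and 8.33%. Of 16 B cell genes, CD24, a surface glycoprotein, and EBF1, a transcription factor of early B cells, rose by 0.88 (SE 0.14) and 1.15 (SE 0.30). EBF1 lost its call without decitabine array 1 or 2 or control array 1, 2 or 3 and with the replicate block (adjusted p up to 0.161). Of 29 epithelial genes, 1 rose: KRT23, a type I keratin, had signals of 6.38, 6.67 and 6.10 in decitabine arrays, against 4.17, 3.87 and 4.33. EPCAM, KRT8 and KRT19 had changes of -0.06, 0.04 and -0.30. The mean of the epithelial list ran from 3.73 to 3.78 over decitabine arrays, against 3.66 to 3.71 over control arrays. Of 33 neuronal genes on the list 13 were measured, and of 31 erythroid and megakaryocyte genes 10. Of the measured genes 0 were called, with medians of -0.05 and -0.04.

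**Figure D4:**
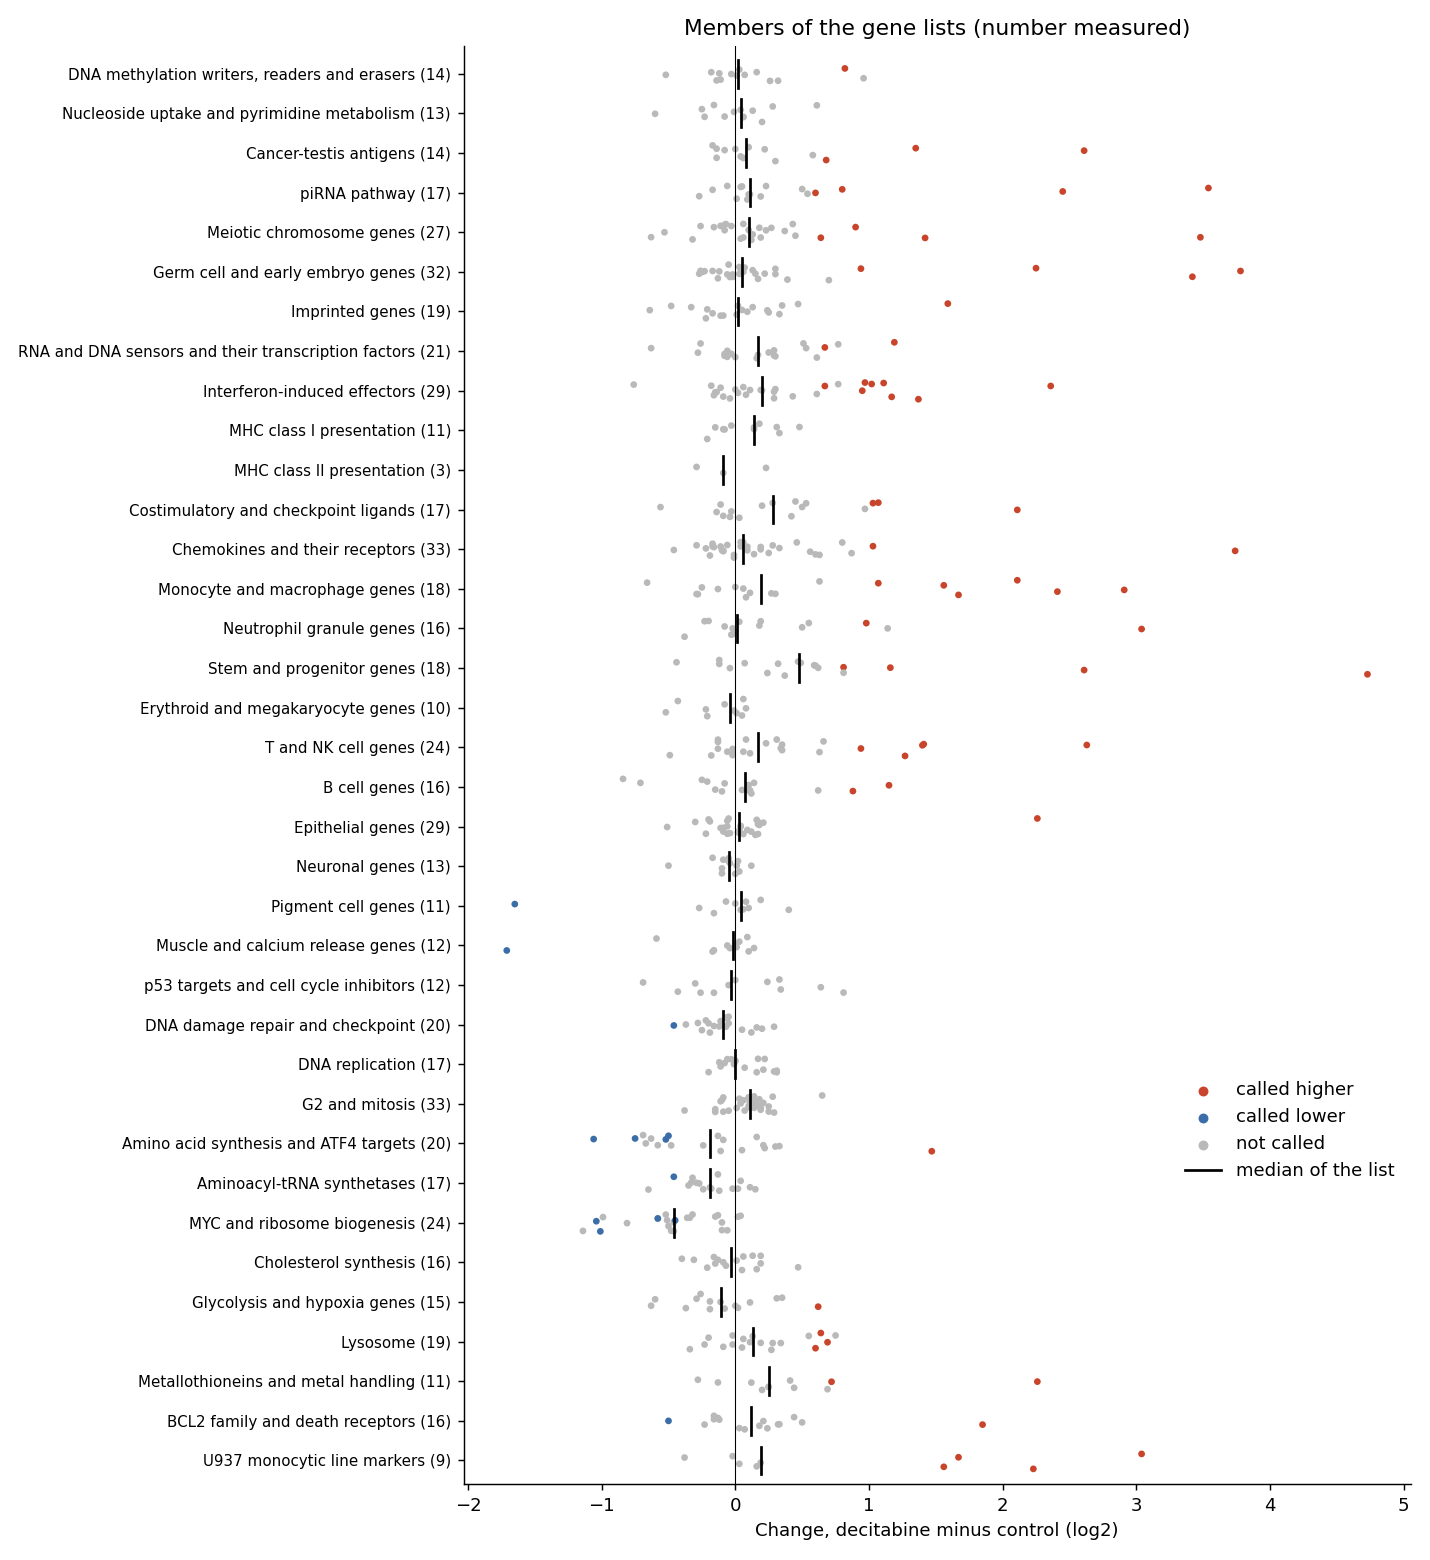
Change of each measured member of 36 gene lists (decitabine minus control, log2, horizontal axis), 1 row per list with the number measured in brackets and a bar at the median. Called members are coloured. In the germline, monocyte and interferon lists a few members lie far to the right of medians between 0.05 and 0.20, the stem and progenitor list has a median of 0.48, and the MYC and ribosome biogenesis list lies to the left, with a median of -0.46.

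Several of the largest rises belonged to none of the lists. PRDX1, a peroxiredoxin that removes hydrogen peroxide, had signals of 11.12, 11.01 and 11.14 in decitabine arrays, against 8.07, 7.91 and 7.56 in control arrays. Its change was 3.24 (SE 0.16), or 9.48-fold, and the groups lay far apart compared with the spread in each. PRDX2, a related enzyme, changed by 0.50 (SE 0.12, limma adjusted p 0.0236) and was called, while PRDX3, PRDX4 and PRDX6 changed by -0.18, -0.25 and -0.08 and were not. PRDX2 lost its call without decitabine array 1 or 3 or control array 1 or 2 and with only the 6 arrays in the model (adjusted p up to 0.108). IGF2BP1, an RNA-binding protein of fetal tissues and tumours, had 6.48, 6.65 and 6.74, against 3.49, 3.37 and 3.43. SV2A, a protein of synaptic vesicles, had 7.33, 7.11 and 6.84, against 3.63, 3.82 and 4.48. PRAC1, a small nuclear protein known from prostate and colon, had 7.45, 7.33 and 7.94, against 3.78, 4.19 and 4.06. LIMS1, an adaptor of focal adhesions, had 7.62, 7.46 and 7.85, against 4.66, 4.61 and 4.55, and was the next gene after the 15 largest rises. LIMS3, a near-identical copy, also rose, and the probes may not tell them apart.

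Of 11 metallothionein and metal handling genes, which bind zinc and copper or follow their levels, 2 rose and 0 fell (median 0.25). The share called was 18.2%, beside 3.96% of all genes. MT1H had signals of 7.15, 6.75 and 7.22 in decitabine arrays, against 4.80, 4.72 and 4.81 in control arrays, and rose by 2.26 (SE 0.17). MT1F rose by 0.72 (SE 0.16) and lost its call without decitabine array 1 or 3 or control array 1 or 2 and with only the 6 arrays in the model (adjusted p up to 0.0971). MT1X and MT1G, at 12.22 and 11.27 in control cells, had changes of 0.20 and 0.25. The MT1 genes are close copies, so single members are uncertain. Of 16 measured BCL2 family genes, 1 rose and 1 fell (12.5% called), and no death receptor on the same list was measured. BIK, a killer protein with only a BH3 domain, had 6.66, 6.93 and 6.68, against 4.38, 5.88 and 4.45, where control array 2 stood above the others, and lost its call without control array 1 or 3 (adjusted p up to 0.0637). BCL2, which restrains cell death, had 11.24, 11.17 and 11.11, against 11.55, 11.84 and 11.62, fell by 0.50 and lost its call without control array 2 and with only the 6 arrays in the model (adjusted p up to 0.0663).

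Falls were smaller than rises. ZNF32, a zinc finger protein, had signals of 4.26, 5.21 and 4.52 in decitabine arrays, against 6.27, 6.32 and 6.64 in control arrays, a change of -1.75 (SE 0.28). RYR2, a calcium release channel best known from heart, had 4.45, 4.19 and 4.09, against 5.86, 6.23 and 5.77, and was the only 1 of 12 muscle and calcium release genes called. TYRP1, an enzyme of melanin synthesis, had 6.13, 6.42 and 5.98, against 7.89, 7.92 and 7.67, and was the only 1 of 11 pigment cell genes called. TSPOAP1, which binds presynaptic calcium channels, changed by -1.50 (SE 0.27). ZP3, a sperm-binding glycoprotein of the egg coat, had tight arrays at 5.61, 5.86 and 5.82, against 7.05, 7.02 and 7.03. The transcription factor ONECUT2 changed by -1.18 (SE 0.15), PTGR2, a prostaglandin reductase, by -1.31 (SE 0.16), and RASAL2, a RAS GTPase activator, by -1.31 (SE 0.25). OPCML, a cell adhesion protein of the IgLON family, changed by -1.31 (SE 0.25), FMNL2, a formin, by -1.17 (SE 0.19), and IFT81, of the transport particle in cilia, by -1.16 (SE 0.17).

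The 4 remaining large falls depended on single arrays. TOP6BL, a partner of SPO11 in meiotic DNA breaks, had signals of 6.54, 4.64 and 6.55 in decitabine arrays, against 7.73, 7.26 and 7.08, and lost its call without decitabine array 2 or control array 1, 2 or 3 and with only the 6 arrays in the model (adjusted p up to 0.175). ZNF138 changed by -1.36 (SE 0.29) and lost its call without control array 1 or 2 (adjusted p up to 0.0733). FBXO10, a ubiquitin ligase subunit, changed by -1.32 (SE 0.28) and lost it without decitabine array 2 or control array 2 (adjusted p up to 0.0569). AMER1, a regulator of WNT signalling, changed by -1.18 (SE 0.27) and lost it without decitabine array 3 or control array 2 (adjusted p up to 0.0886).

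MYC and some genes of ribosome production were lower. MYC, the transcription factor, had signals of 9.77, 9.80 and 9.55 in decitabine arrays, against 10.74, 10.61 and 10.79 in control arrays, and fell by 1.01 (SE 0.22). Of 24 measured genes on the list, which names 36, 4 fell (16.7%, beside 3.96% of all genes called) and 0 rose. The median change of the list was -0.46, against -0.01 over all genes. The others called were LYAR, a nucleolar protein, at -1.04 (SE 0.26), and WDR43 and HEATR1, which work in processing the small ribosomal subunit RNA, at -0.58 (SE 0.11) and -0.45 (SE 0.10). WDR43 had 10.34, 10.48 and 10.44, against 10.94, 11.09 and 10.98. GAR1 and TFAP4 had changes of -1.14 and -0.99 without a call, and NOP2 and BOP1 of 0.04 and 0.02. The mean of the 24 genes ran from 8.53 to 8.63 over decitabine arrays, against 8.98 to 9.12 over control arrays. MYC lost its call without decitabine array 3 or control array 1 or 3 (adjusted p up to 0.0617), LYAR lost it without decitabine array 1, 2 or 3 or control array 1 or 2 (adjusted p up to 0.147), and HEATR1 lost it without decitabine array 1, 2 or 3 or control array 2 or 3 and with only the 6 arrays in the model (adjusted p up to 0.0942).

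Amino acid synthesis genes and targets of ATF4, the transcription factor of the amino acid response, moved in both directions. Of 20 measured, 4 fell and 1 rose (25% called, beside 3.96% of all genes), with a median of -0.19. ASNS, asparagine synthetase, had signals of 6.84, 6.95 and 6.41 in decitabine arrays, against 7.61, 8.18 and 7.59 in control arrays, a change of -1.06 (SE 0.19). MTHFD1L, of mitochondrial folate metabolism, changed by -0.75 (SE 0.20), DDIT4, an inhibitor of mTOR signalling, by -0.52 (SE 0.12), and PSAT1, of serine synthesis, by -0.50. ATF5, a relative of ATF4, rose, with 7.10, 7.12 and 7.44, against 6.04, 5.25 and 5.97, while ATF4 itself changed by 0.05 and was not called. MTHFD1L lost its call without decitabine array 1, 2 or 3 or control array 2 or 3, with only the 6 arrays in the model and with the replicate block (adjusted p up to 0.187), DDIT4 lost it without decitabine array 2 or control array 1 or 3 and with only the 6 arrays in the model (adjusted p up to 0.093), and PSAT1 lost it without decitabine array 1 or control array 3 and with only the 6 arrays in the model (adjusted p up to 0.089). Of 17 aminoacyl-tRNA synthetases, AARS1 (5.88% of them) was called, at -0.46 (SE 0.11). AARS1 lost its call without decitabine array 1 or 2 or control array 2 or 3 and with only the 6 arrays in the model (adjusted p up to 0.0993). BNIP3, a mitochondrial mitophagy receptor, was the 1 gene called of 15 glycolysis and hypoxia genes (6.67%), at 0.62 (SE 0.14). BNIP3 lost its call without decitabine array 1 or control array 1 or 2 and with only the 6 arrays in the model (adjusted p up to 0.0875).

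Of the cell cycle, damage and p53 lists, only the damage list held a called gene (5% of its members), beside 3.96% of all genes. The lists of DNA replication and of G2 and mitosis each name 41 genes, of which 17 and 33 were measured. Of the measured genes 0 were called in limma, with medians of 0.00 and 0.11. Of 31 p53 targets and cell cycle inhibitors on the list only 12 were measured, and CDKN1A and MDM2 were not among them. Of the 12, 0 were called, with a median of -0.03, and 5 had changes above 0. So few members cannot say whether the p53 pathway responded. BAX, TIGAR and TP53INP1 had changes of 0.33, 0.64 and 0.81, and SESN2, AEN and CDKN2A of -0.69, -0.43 and -0.30. Of 20 DNA damage repair and checkpoint genes, 1 fell: the kinase ATR, which responds to stalled replication, changed by -0.46 (SE 0.11) and lost its call without decitabine array 1 or 3 or control array 2 or 3, with only the 6 arrays in the model and with a trended, robust variance (adjusted p up to 0.133). Of 16 cholesterol synthesis genes 0 were called, with a median of -0.03.

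Genes of DNA methylation and of nucleoside metabolism, only some of which decitabine is known to act through, held 1 call. Of 14 measured DNA methylation writers, readers and erasers 1 (7.14%) was called, beside 3.96% of all genes. Of 13 measured genes on the nucleoside uptake and pyrimidine metabolism list 0 were called, and no transporter was among them. With 1 call, these shares cannot be set against that of all genes. DNMT1, the maintenance methyltransferase and target of the drug, had signals of 11.07, 11.02 and 11.12 in decitabine arrays, against 10.79, 10.71 and 10.94 in control arrays, and its change of 0.26 (SE 0.11) did not pass (adjusted p 0.229 in limma). DNMT3B, a de novo methyltransferase, had 8.01, 7.78 and 7.67, against 6.70, 6.93 and 7.36, rose by 0.82 (SE 0.19), and lost its call without decitabine array 1 or control array 1 or 2 and with only the 6 arrays in the model (adjusted p up to 0.109). DNMT3A changed by 0.96 (SE 0.35) with an adjusted p of 0.163, and UHRF1, which brings DNMT1 to replicated DNA, by 0.32 (SE 0.14) with 0.256. Over the alternative settings the adjusted p of DNMT3A in limma ran from 0.0425, which passes the threshold, to 0.394. TET1 and TET2, which oxidise methylcytosine, changed by -0.52 (SE 0.21) and -0.03 (SE 0.33) and were not called. In the nucleoside list, DCK, the kinase that activates decitabine, changed by -0.25 (SE 0.20), CDA, the deaminase that inactivates it, by 0.61 (SE 0.18) with an adjusted p of 0.0793, and SAMHD1, which hydrolyses its triphosphate, by 0.13 (SE 0.24). TET3 and the transporter SLC29A1 had no named probe set.

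Among genes that code for no protein, 18 of 1398 lncRNA genes rose and 10 fell (1.29% and 0.715%). Of 447 transcribed pseudogenes, 4 rose and 5 fell (0.895% and 1.12%), beside 2.57% and 1.39% of all genes. PROSER2-AS1 had signals of 6.99, 7.32 and 7.43 in decitabine arrays, against 3.83, 3.46 and 3.71 in control arrays, and AFAP1-AS1 had 7.53, 7.00 and 7.34, against 3.87, 3.74 and 3.56. Their sense partners PROSER2 and AFAP1 were not called, with adjusted p of 0.394 and 0.917. APOC4-APOC2, a readthrough of 2 apolipoprotein genes whose probes may also read APOC2, rose by 3.26 (SE 0.26), and LINC00891 rose by 2.73 (SE 0.22). The pseudogene ANXA2P2, close in sequence to ANXA2, had 10.77, 10.74 and 10.76, against 8.82, 8.73 and 8.68, and rose by 2.02 (SE 0.11). ANXA2 itself had 5.37, 5.41 and 3.84, against 3.52, 3.85 and 3.74, with an adjusted p of 0.146. Signal of ANXA2 transcripts on the ANXA2P2 probes was not tested.

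Of 1072 microRNA genes, 4 were higher and 6 lower (0.373% and 0.56%, beside 2.57% and 1.39% of all genes), none by 2-fold. MIR223, whose microRNA is known to act in myeloid cells, had signals of 9.12, 9.30 and 9.20 in decitabine arrays, against 8.36, 8.48 and 8.50 in control arrays, and rose by 0.76 (SE 0.17, adjusted p 0.0182 in limma). It lost its call without decitabine array 2 or 3 or control array 1 or 2 (adjusted p up to 0.0767). The probes read total RNA of the gene and do not tell the mature arms from the precursor. The mature arms (RefSeq, GRCh38.p14, plus strand, chrX:66018895-66018916 for the 5' arm and chrX:66018937-66018958 for the 3' arm) are given to show which products this gene has, with the seed (bases 2 to 8) in capitals.
hsa-miR-223-5p: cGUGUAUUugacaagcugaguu
hsa-miR-223-3p: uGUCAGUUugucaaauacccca

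The other microRNA genes called higher were MIR645 (0.78), MIR550A2 (0.55) and MIR3167 (0.46), and those called lower were MIR548I2 (-0.71), MIR573 (-0.65), MIR3198-1 (-0.61), MIR3178 (-0.59), MIR3175 (-0.51) and MIR4675 (-0.50). Of these 9, all but MIR645 lost their call without 1 or more of the single arrays. MIR573 lies next to ADGRA3, which also fell, by 0.56.

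Calls were spread over the chromosomes. The share of tested genes called higher ran from 1.81% on chromosome 16 to 4.26% on chromosome 19 (46 of 1081 genes), with 3.51% on the X chromosome. The share called lower ran from 0.24% on chromosome 20 to 3.45% on chromosome 18, and chromosome 19 had 5 genes lower. Zinc finger genes with a ZNF symbol, many of which lie on chromosome 19, had 13 of 491 called higher and 3 lower. These shares were 2.65% and 0.611%, beside 2.57% and 1.39% of all genes. Of 14847 pairs of neighbouring tested genes, 22 were both called higher and 8 both lower. Pairs that rose together included AZU1 and PRTN3, HCST and TYROBP, PECAM1 and MILR1, SV2A and MTMR11, SAMD9 and SAMD9L, and HNRNPLL and GALM. ASNS fell together with SDHAF3, and BCL2 with KDSR. These pairs were chosen by their calls and were not tested as pairs.

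Where a called gene had several probe sets they gave a mixed picture. Of 32 such genes, 24 had all probe sets moving in the same direction and 8 had all of them called, and 0 had probe sets called in opposite directions. In BICD1 the probe set that stood for the gene (mean signal 6.99) changed by -0.89 and the other (mean signal 3.57) by 0.02. CTAG1A, FKBPL and MIR3175 each have 2 probe sets with the same mean signal and change, of which 1 stood for the gene. They are among the 8 genes with all probe sets called, and their agreement is no second measurement. Some probe sets of TNF, AGER and GAGE12C also share their values, so both counts include copies. GAGE12C, GAGE12G and GAGE12J have the same values to 2 decimals in these 6 arrays, so that these copies add to the counts.

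The response to decitabine was measured again in arrays that took no part in choosing these genes: decitabine plus panobinostat against panobinostat, and decitabine plus valproic acid against valproic acid. These comparisons share no array with decitabine against control, though all arrays share the estimate of spread. With panobinostat present 1421 genes (9.55%) were called, 806 higher (5.42%) and 615 lower (4.13%), and with valproic acid present 600 (4.03%), 391 higher (2.63%) and 209 lower (1.4%). Without panobinostat array 1 the first count was 882, and without valproic acid array 2 or 3 the second was 381 or 371. Of the 383 genes that decitabine alone raised, 229 (59.8%) were called higher with panobinostat present and 187 (48.8%) with valproic acid present, and 158 in both. Of the 207 that it lowered, 90 (43.5%) and 61 (29.5%) were called lower again, and 46 in both. The median change of the genes raised was 0.96 alone, 0.69 with panobinostat and 0.62 with valproic acid. That of the genes lowered was -0.69 alone, -0.42 and -0.38. Of the genes raised, 353 and 352 had changes above 0 with each inhibitor, as had 47.6% and 46.4% of all genes, and of the genes lowered 186 and 192 were below 0, as were 52.4% and 53.6% of all genes. Since the genes were picked for their calls in the first comparison, smaller medians in the others can follow from that choice.

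Few genes were called in opposite directions: BMP2 and VNN1 rose with decitabine alone and were lower with decitabine when panobinostat was present, PHC3 did the reverse, and with valproic acid there were 0. BMP2, a growth factor, had signals of 6.96, 6.55 and 6.56 in decitabine arrays, against 6.04, 5.77 and 6.07 in control arrays, and changed by -1.21 (SE 0.19) with panobinostat present. Its rise with decitabine alone lost its call without decitabine array 1, 2 or 3 or control array 1, 2 or 3 and with arrays centred (adjusted p up to 0.164). CD34 rose again, by 3.74 with panobinostat and 4.08 with valproic acid, and so did MAEL, by 3.91 and 4.76, and PRDX1, by 3.14 and 3.46. CSF1R changed by 0.07 and 0.70, PRTN3 by 0.33 and 1.80, and ASNS by 0.57 and -0.22. For CSF1R the difference between the changes with and without panobinostat was -2.34 (SE 0.42, adjusted p 0.0151 in limma), and for PRTN3 it was -2.71 (SE 0.39, adjusted p 0.0041). With panobinostat alone CSF1R had a mean of 6.28, against 4.34 in control cells, and PRTN3 had 4.10, against 4.58.

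**Figure D5:**
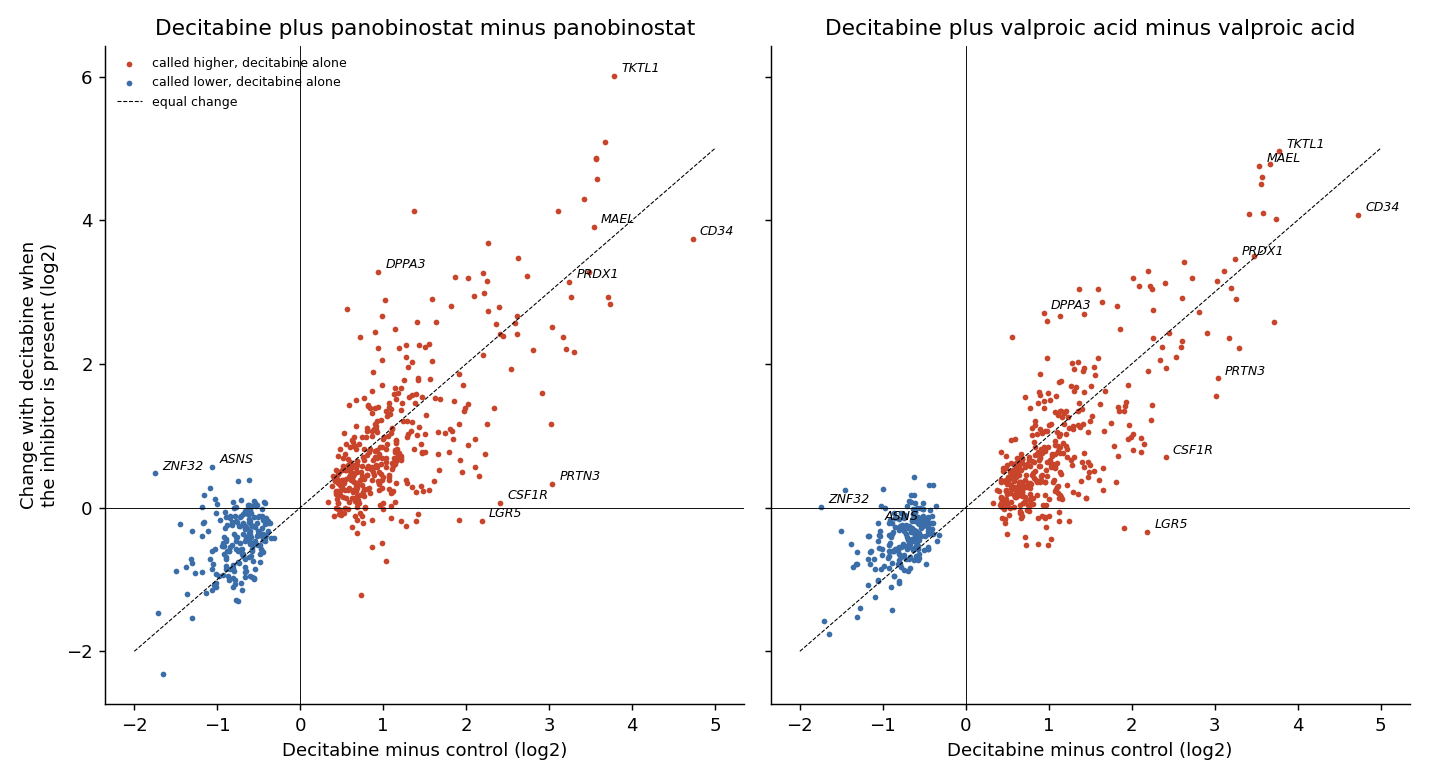
Change with decitabine in the presence of panobinostat (left) or valproic acid (right) on the vertical axis against the change with decitabine alone on the horizontal axis, both log2, for the 383 genes called higher and the 207 called lower with decitabine alone. Most points lie in the quadrants of equal sign, with 353 and 352 of the 383 genes above 0, and CSF1R and PRTN3 lie far below the line of equal change on the left.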

How the data were processed

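RNA of U937 cells was measured on 18 Affymetrix arrays in 6 groups of 3. The authors deposited log2 signals summarised with RMA, per the submitters' processing notes (software version not given in the sources used here). RMA sets the distributions of the arrays alike, so a shift shared by most genes would not show. Precision is limited by the number of arrays. Values ran from 2.29 to 14.57, with array medians of 3.81 to 3.87.

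Symbols came from the array's annotation table, matched by gene identifier to RefSeq. Of 48226 probe sets 16098 had 1 symbol, 0 several and 32128 none, and the probe set with the highest mean over all arrays stood for each of 779 genes with more than 1. Tests across the 14884 genes used limma 3.58.1 (R 4.3.3) on a model of 6 group means (12 residual degrees of freedom), with Benjamini-Hochberg adjustment and a threshold of 0.05. Alternatives were the 6 arrays alone, a replicate block, the mean of probe sets, each probe set, a filter on low levels, centred arrays, a trended robust variance, and leaving out each array.

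Genes were named by rule: the 15 largest rises and falls among called protein-coding genes whose groups do not overlap, up to 4 called members of each of 36 measured lists, 11 genes of drug target and handling, and the 5 largest changes not coding for protein. Genes named outside the rule (members not called, relatives and neighbours of named genes, LIMS1, TM4SF1, BMP2, the microRNAs) were chosen after their values were seen. The members and lists were chosen with earlier results of these data known, and no list was tested as a set. Counts and shares of a list cover its measured members only. Many lists were measured in part, such as 14 of 54 cancer-testis antigens. Replicate numbers are not taken as pairs. On simulated data of the same size the test recovered 46% of changes of 0.58, 82% of 1.00 and 100% of 2.00 (log2), with 10 false among 163 calls.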

Additional observations from a re-analysis of the deposited data

Results flagged for a closer look

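Outside the named genes, 749 of 32128 probe sets without a symbol (2.33%) were called in decitabine against control when tested by themselves with limma, 444 higher and 305 lower, of which 211 and 69 by at least 2-fold. They were not analysed further.

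For 18 named genes the change with decitabine differed between cells with and without panobinostat, by limma's test of that difference with adjustment over all genes. The decitabine and control arrays that chose these genes also enter this difference. The change was larger in the presence of panobinostat, by 2.23 on the log2 scale for TKTL1 (adjusted p 0.0471), 1.42 for DCAF4L1 (0.00992), 2.35 for DPPA3 (0.00462), 1.32 for PEG10 (0.0271), 1.43 for MT1H (0.0114), 1.01 for CD24 (0.0305) and 1.29 for AFAP1-AS1 (0.00611). Falls seen with decitabine alone were absent in the presence of panobinostat for ZNF32, ONECUT2, IFT81 and ASNS, where the change with decitabine was 0.48, 0.01, 0.18 and 0.57 and the differences were 2.23, 1.19, 1.34 and 1.63 (adjusted p 0.0149, 0.013, 0.0164 and 0.00936). With panobinostat alone these genes had means of 4.97, 6.53, 6.99 and 7.00, against 6.41, 7.16, 6.62 and 7.79 in control cells.

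For some myeloid genes the change with decitabine was lower in the presence of panobinostat. The difference was -2.71 for PRTN3 (adjusted p 0.0041), -2.34 for CSF1R (0.0151), -1.55 for CD86 (0.00992), -1.32 for TYROBP (0.0151), -1.77 for CXCR4 (0.028) and -1.49 for VIM (0.00462). In the presence of panobinostat TYROBP and VIM still rose with decitabine, by 1.59 and 0.74. There PRTN3, CSF1R, CD86 and CXCR4 changed by 0.33, 0.07, 0.56 and -0.74 and were not called. With panobinostat alone CSF1R, CD86, CXCR4 and VIM had means of 6.28, 6.83, 10.40 and 8.40, against 4.34, 5.08, 8.69 and 6.51 in control cells. With both agents they had 6.35, 7.38, 9.66 and 9.14, against 6.75, 7.19, 9.71 and 8.74 with decitabine alone. TYROBP had 8.61 with panobinostat alone and 10.20 with both, against 10.75 with decitabine alone. PRTN3 had 4.10 and 4.43, against 7.62. For LYZ, AZU1, HDC and CD68 the differences of -1.14, -0.70, -1.14 and 0.23 did not pass (0.0721, 0.329, 0.473 and 0.881). ANXA2P2 had a difference of -1.15 with panobinostat (0.00324) and of -1.22 with valproic acid (0.00749), the 1 named gene whose difference with valproic acid passed the threshold. Its mean was 10.35 with panobinostat alone and 10.23 with valproic acid alone, against 8.74 in control cells.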

How the results depend on the processing

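Decitabine against control had 590 called genes. The count was 508 with only its 6 arrays in the model, 595 with the mean of a gene's probe sets, 613 with every probe set, 611 with a filter on low levels, 646 with centred arrays and 611 with a trended robust variance. Leaving out 1 array gave 361 to 468 calls. With the 6 arrays compared alone, decitabine plus panobinostat against panobinostat had 938 calls in place of 1421, and decitabine plus valproic acid against valproic acid had 261 in place of 600. Leaving out 1 array gave 882 to 1126 and 371 to 565. With the replicate number as a block, the 3 comparisons had 586, 1432 and 593 calls. Same-numbered decitabine and control arrays deviated from their group means with correlations of -0.001, 0.057 and 0.049, and differently numbered ones with -0.065 to 0.015. So few small values cannot decide whether arrays were paired. The numbers were not taken as pairs because the labels do not say that they pair arrays. The causes of these moves were not tested, apart from the fewer arrays in the model.

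Of 92 called genes among the 100 named, 58 kept their call under every alternative that tested them. TET2 and SAMHD1, which were never called, turned in sign. TET2 changed by -0.20 to 0.08 over the arrays left out, with 0.07, 0.03 and 0.08 without control array 1, decitabine array 2 and decitabine array 3. SAMHD1 changed by -0.02 to 0.26, with -0.02 without control array 1. A missing call at 3 arrays a group does not show that a gene kept its level, least of all near background.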

Other observations

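Among the rises of at least 4-fold that belong to no list above were an enzyme and several cell surface genes, picked here after their values were seen. ACY3, an aminoacylase, had signals of 8.34, 8.29 and 8.73 in decitabine arrays, against 5.08, 5.42 and 5.79 in control arrays. IL1RL1, the receptor for interleukin 33, had 7.48, 6.38 and 5.65, against 4.08, 3.90 and 3.90, and ADGRG3, an adhesion receptor of granulocytes, had 7.51, 6.79 and 5.92, against 3.99, 3.99 and 3.82. In both of these genes the decitabine arrays spanned over 1 log2 unit while the control arrays lay together. LGR5, a receptor for R-spondins, had 5.87, 6.57 and 6.42, against 3.71, 3.82 and 4.76, and RXFP1, the relaxin receptor, had 6.10, 5.74 and 5.42, against 3.71, 3.62 and 3.59. ESAM, an adhesion molecule of endothelium and platelets, had 5.88, 5.92 and 6.61, against 3.61, 3.73 and 3.84.

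Some genes of the cytoskeleton and membrane rose from a high level. TPM4, a tropomyosin, had 10.00, 9.99 and 9.97 in decitabine arrays, against 8.19, 8.21 and 8.17 in control arrays, a change of 1.79 (SE 0.10). MAP7, a microtubule-associated protein, had 9.36, 9.16 and 9.34, against 7.06, 7.55 and 7.33. EMP1, an epithelial membrane protein, had 9.81, 9.84 and 10.01, against 7.73, 8.29 and 8.66, where the control arrays spanned almost 1 log2 unit.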
